A study of Mus musculus with 2 samples.

Results

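The cathepsin proteases of cultured mouse neutrophils were described on 2 Affymetrix 3' arrays, 1 from miR-223 knockout cells and 1 from wild-type cells. The genes were Ctsl, Ctsb, Ctss, Ctsh, Ctsc, Ctsz, Ctsd, Ctse, Ctsa and Ctsg, 10 of the 18193 genes measured. They were taken by symbol from all probe sets that the platform annotation names for 1 gene, which gave 22 probe sets. No probe set named a cathepsin of this set together with another gene. The miR-223 knockout cells and the wild-type cells both came from male C57BL/6 mice. In both, blood-forming progenitors of the bone marrow had been grown for 6 days with G-CSF, which drives the formation of granulocytes, and SCF, which acts on early progenitors through Kit. Both cultures received cycloheximide, a blocker of translation, at 100 ug/ml for the last 8 min. The number of mice behind each culture was not given in the sources used here.

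With 1 array per genotype there was no replicate, so the differences have no replicate check, and no test could be made. Each difference is the knockout minus the wild-type value of log2(intensity + 16) and compares these 2 arrays, whose number limits its precision. Where a gene had several probe sets, the one with the highest mean log2 value stood for it. Genes with that mean at or above the median of all probe sets, an intensity of 33.9, are called expressed. Differences are set against the SD between probe sets of a gene, 0.14, which comes from within these arrays and is not a replicate error.

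Cathepsins are proteases that are made as inactive precursors and mostly work in the acidic lysosome. They fall into 3 chemical classes. The cysteine proteases of the papain family are Ctsl, Ctsb, Ctss, Ctsh, Ctsc and Ctsz, the aspartic proteases are Ctsd and Ctse, and the serine proteases are Ctsa and Ctsg. In neutrophils, Ctsg is itself a cargo of the primary granules, and Ctsc cuts the precursors of the granule serine proteases to their active form. A microRNA such as miR-223 pairs through its seed, bases 2 to 8, with messenger RNAs and lowers their level or translation. Ctsl has been named in earlier work as a target of miR-223.

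The knockout removes the microRNA whose 2 mature arms are printed here from RefSeq (GRCm38.p6, plus strand) with the seed in capitals, because the seed decides which messenger RNAs it pairs with. The 3p arm is the more abundant one in the granulocyte lineage. It lies at chrX:96242884-96242905 and the 5p arm at chrX:96242842-96242864. The arrays have no probe set named for miR-223, which leaves the deletion unchecked, and target sites in cathepsin transcripts were not analysed here.
mmu-miR-223-3p: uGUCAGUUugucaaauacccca
mmu-miR-223-5p: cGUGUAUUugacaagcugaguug

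Every one of the 10 cathepsin genes had a higher intensity on the knockout array on its brightest probe set, although Ctse was at -0.17 with the mean of its probe sets. The median intensity of all probe sets was 33.7 on the knockout array and 34.1 on the wild-type array. All 10 counted as expressed, and all 10 also passed the 75th percentile of probe sets, an intensity of 189. Their differences ran from 0.12 to 1.24 with a median of 0.29, whereas the median of all 11006 expressed genes was -0.00037 and the SD of their differences 0.18. Of expressed genes in general, 49.7% were higher on the knockout array, and of the 6768 genes above the 75th percentile 49.9% were higher. Among the 2752 brightest expressed genes, which held 9 of the 10 cathepsins, 48.7% were higher. In 7 cathepsins the difference exceeded the SD between probe sets, as it did in this direction in 18.8% of expressed genes. A difference of 1 or more, which is 2-fold, was reached by 1 cathepsin, Ctsl, and by 0.0999% of expressed genes. A difference of 0.5 or more was reached by 2, Ctsl and Ctse, and by 1.13% of expressed genes.

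**Figure D1:**
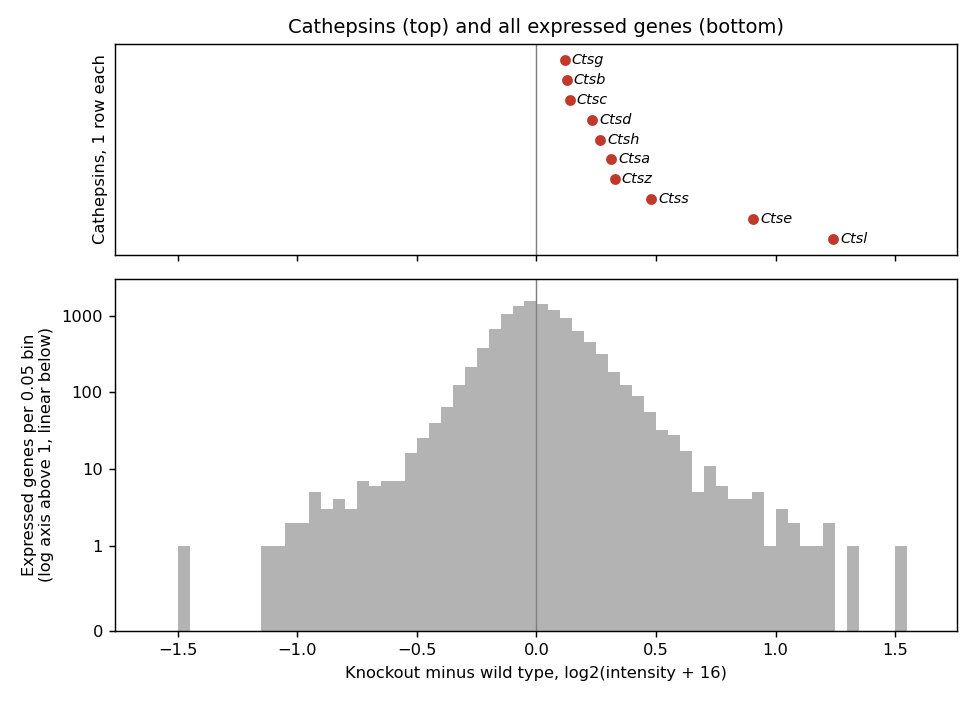
The upper panel places the 10 cathepsins by their difference (knockout minus wild type, log2 scale), 1 row each, and the lower panel counts all 11006 expressed genes in bins of 0.05 on the same axis. The cathepsins all lie above 0, from Ctsg at 0.12 to Ctsl at 1.24, while the expressed genes centre on 0.

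Ctsl, cathepsin L, an endopeptidase of the lysosome, differed the most. Its bright probe set had an intensity of 2619 on the knockout array, against 1099.6 on the wild-type array. That is a ratio of 2.38 and a difference of 1.24, the third highest of the 11006 expressed genes. Its other probe set was dim, with 40.6 on the knockout array and 18.3 on the wild-type array. It fell below the expression threshold, but its ratio of 2.22 was close to that of the bright one, and its difference of 0.72 was shrunk by the pseudocount. Both Ctsl probe sets were thus higher in the knockout culture. With the mean of both, Ctsl stood at 0.98. The bright one belongs to a suffix class whose probes can match several transcripts of a gene, and without such classes Ctsl had no expressed probe set.

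The 5 expressed genes whose difference lay nearest to that of Ctsl were Nnmt, the nicotinamide methyltransferase (1.22), Tax1bp3 (1.19), Itgb3, the platelet integrin beta chain (1.34), Nlrp12, a myeloid NOD-like receptor (1.13), and Igfbp6, which binds insulin-like growth factors (1.08). The likeness is that of 1 difference between 2 arrays and says nothing of shared control. None of the 5 is a cathepsin.

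The other cysteine cathepsins were higher by smaller amounts. Ctss, cathepsin S, which trims the invariant chain of MHC class II in antigen-presenting cells, had an intensity of 3169 on the knockout array and 2269 on the wild-type array. Its difference of 0.48 rested on its only probe set, and 98.7% of expressed genes had a lower one. Ctsz, cathepsin Z, a carboxypeptidase, had 3 probe sets that gave nearly the same result. Their intensities were 8394, 3149.8 and 2914 on the knockout array, against 6690.2, 2441 and 2259 on the wild-type array, with differences of 0.33, 0.37 and 0.37. Ctsh, cathepsin H, an aminopeptidase, likewise had probe sets that agreed. They read 761 and 422 on the knockout array, against 629.8 and 342 on the wild-type array, and differed by 0.27 and 0.29. The dimmer Ctsh probe set and all 3 of Ctsz belong to suffix classes whose probes can match several transcripts.

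Ctsb and Ctsc were higher on their brightest probe set by less than the SD between probe sets. Ctsb, cathepsin B, which acts as both an endopeptidase and a carboxypeptidase, read 4116 on the knockout array and 3769 on the wild-type array, a difference of 0.13. Its second brightest probe set read 3102 on the knockout array and 2499 on the wild-type array (0.31). A pair of dimmer ones read 208 and 178 on the knockout array, against 133 and 135 on the wild-type array (0.59 and 0.37). The dimmest probe set of Ctsb went the other way, with 63.3 on the knockout array and 78.7 on the wild-type array (-0.26). So 4 of the 5 Ctsb probe sets were higher, and the brightest gave the smallest of the 4 positive differences. The mean over its probe sets was 0.23. Ctsc, cathepsin C, also called dipeptidyl peptidase I, read 5196 on the knockout array and 4719 on the wild-type array (0.14). Its second probe set read 143 on the knockout array and 118 on the wild-type array (0.24). The dimmest read 50.7 on the knockout array and 57.7 on the wild-type array (-0.15), so the sign of Ctsc depends on the probe set, and the mean over all 3 was 0.079.

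The aspartic cathepsins differed in how firmly they were measured. Ctsd, cathepsin D, an abundant lysosomal endopeptidase, had 1 probe set with 4092 on the knockout array and 3477 on the wild-type array, a difference of 0.23. That probe set is of the same suffix class as the bright Ctsl one. Ctse, cathepsin E, a protease of endosomes rather than of lysosomes, gave opposite answers on its 2 probe sets. The brighter read 5643 on the knockout array, against 3008 on the wild-type array, a difference of 0.90. The other read 243 on the knockout array, against 593 on the wild-type array, a difference of -1.23. Neither reading was near the expression threshold. The gap between them, 2.14, was the widest among the 5017 genes with at least 2 expressed probe sets, for which the median gap was 0.17. Ctse was also the 1 gene of these 5017 with a probe set at least 0.5 higher and another at least 0.5 lower. With the mean of both the gene stood at -0.17, so no direction for Ctse as a whole follows from these arrays. The probe sets' places in the transcript and their possible matches to other transcripts were not analysed here.

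**Figure D2:**
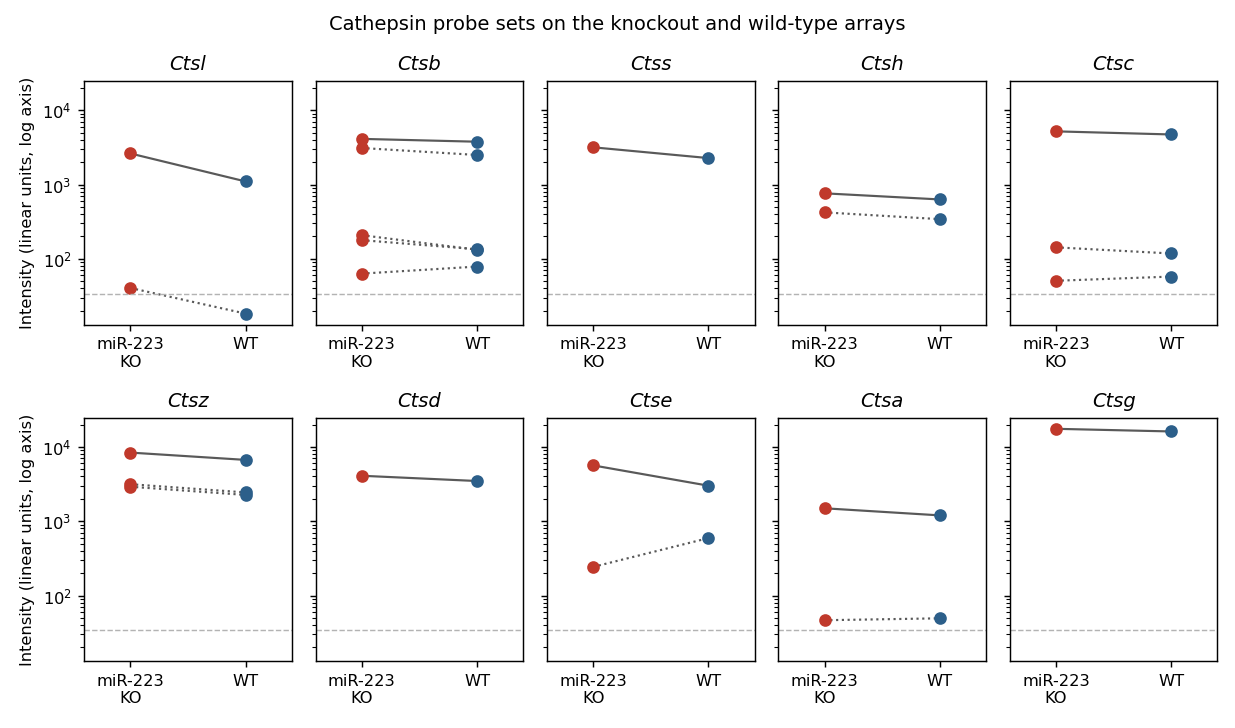
Each panel shows the probe sets of 1 cathepsin, with the intensity on the knockout array at the left (red) and on the wild-type array at the right (blue), on a log axis. Solid lines mark the probe set used for the gene, dotted lines the others, and the dashed line the expression threshold of 33.9. Ctsl has the steepest lines of one direction, and the 2 lines of Ctse cross in direction.

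The serine cathepsins were both higher on the probe set used. Ctsa, cathepsin A or protective protein, a carboxypeptidase that also stabilizes the lysosomal enzymes neuraminidase and beta-galactosidase, read 1493 on the knockout array and 1199 on the wild-type array (0.31). Its other probe set was dim and nearly level, at 46.5 on the knockout array and 49.4 on the wild-type array (-0.064), which puts the mean of both at 0.12. Ctsg, cathepsin G, read 17535 on the knockout array and 16154.5 on the wild-type array. It was among the brightest genes of both arrays, and its difference of 0.12 was the smallest of the 10 and within the SD between probe sets. Whether such a bright signal still rises in proportion to RNA was not tested.

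Over all 22 probe sets, 18 were higher on the knockout array and 4 were lower. Of the 21 expressed ones, 17 were higher, beside 53.6% of the 19482 expressed probe sets of single genes. The 4 lower ones were the dimmest probe sets of Ctsb, Ctsc and Ctsa and the dimmer one of Ctse. Of the 7 genes with several probe sets, Ctsl, Ctsh and Ctsz had them all higher, and the other 4 had both signs. By class, the median was 0.30 for the 6 cysteine cathepsins and 0.22 for the 2 serine ones, while the aspartic pair stood at 0.23 and 0.90. Without Ctsl and Ctse the median of the remaining genes was 0.25.

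**Figure D3:**
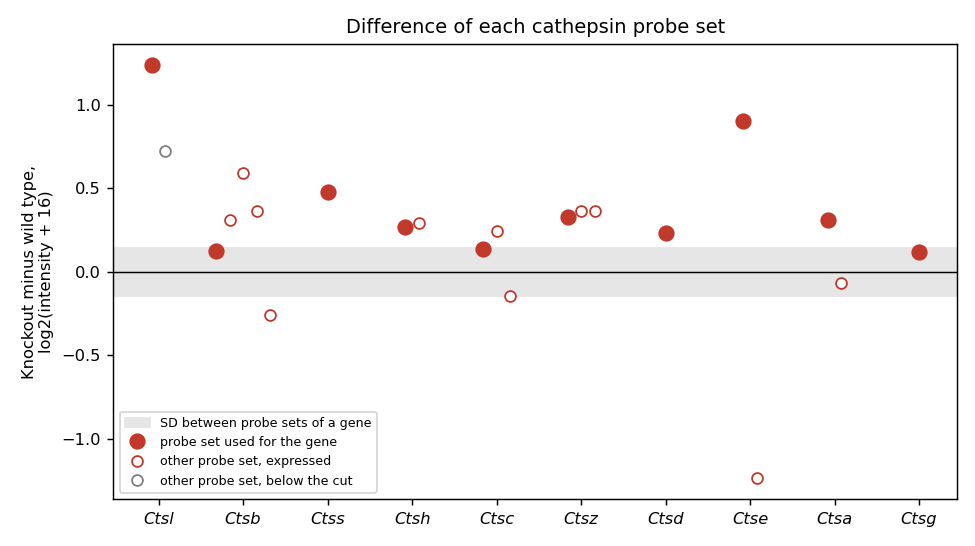
Differences (knockout minus wild type, log2 scale) of all 22 cathepsin probe sets by gene. Filled points are the probe sets used for each gene, open red points other expressed ones and the open grey point the dim Ctsl one; the grey band spans the SD between probe sets of a gene, 0.14 on either side of 0. The probe sets of Ctsz and Ctsh lie close together, and those of Ctse lie at 0.90 and -1.23.

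The genes of the cathepsins lie on 7 chromosomes, and the share of higher genes among their expressed neighbours ran from 3 to 8 of 10. Among all expressed genes, 49.7% were higher. Around Ctss on chromosome 3 and Ctsa on chromosome 2, 8 of 10 were higher, with medians of 0.057 and 0.077. Both medians were within the SD between probe sets. The highest value beside Ctsa was 0.43, in Pltp, a phospholipid transfer protein. Of the 10 expressed genes nearest to Ctsl on chromosome 13, 3 were higher, with differences from -0.12 to 0.21. Around Ctse on chromosome 1, 4 of 10 were higher, from -0.76 in Rab7b, a small GTPase of the endosomal pathway, to 0.29. Around the other 5 genes, Ctsb, Ctsd, Ctsh, Ctsc and Ctsz, 4 to 6 of 10 were higher. Around Ctsg on chromosome 14, 3 of 10 were higher, with a median of -0.20. That neighbourhood holds the mast cell and lymphocyte proteases Cma1 (-0.76), Mcpt8 (-0.55) and Gzmb (-0.22), all of them lower on the knockout array where Ctsg itself was higher.

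The remaining members of the cathepsin family were scarce in these cultures. Of 12 other cathepsin genes, Ctso alone was expressed, at 151 on the knockout array and 154 on the wild-type array (-0.027, or 0.081 with the mean of its probe sets). Ctsk of osteoclasts, Ctsw of cytotoxic lymphocytes and Ctsf stayed below the threshold on both arrays. So did Cts3, Cts6, Cts7, Cts8, Ctsj, Ctsm, Ctsq and Ctsr, which in the mouse lie with Ctsl on chromosome 13 and are known from the placenta.

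The promoters of the cathepsins were searched for the sequence CACGTG, an E-box that reads the same on both strands. Its longer form TCACGTGA is the core of the element bound by Tfeb and Tfe3, transcription factors of lysosomal genes. RefSeq windows of GRCm38.p6, from 250 bases before to 50 after a start site, were matched for 7 of the 10 genes: Ctsa, with 2 windows, and Ctsz, Ctss, Ctsc, Ctsd, Ctsl and Ctsg. CACGTG occurred in 3 of these 7 genes, Ctsa, Ctsd and Ctsl. By window, that is 3 of their 8 windows, beside 7.15% of all 32851 windows. TCACGTGA, which contains it, occurred in Ctsa and Ctsd, in 2 of the 8 windows, beside 0.974% of all windows. The 3 windows are printed with CACGTG in capitals. Ctsl lies at chr13:64370471-64370770 on the minus strand, Ctsd at chr7:142387778-142388077 on the minus strand and Ctsa at chr2:164833523-164833822 on the plus strand.
Ctsl: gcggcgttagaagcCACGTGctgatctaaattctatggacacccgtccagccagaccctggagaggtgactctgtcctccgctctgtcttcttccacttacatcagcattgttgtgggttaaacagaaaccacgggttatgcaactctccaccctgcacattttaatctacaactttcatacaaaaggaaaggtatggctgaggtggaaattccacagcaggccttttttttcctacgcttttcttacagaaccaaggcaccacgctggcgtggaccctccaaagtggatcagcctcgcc
Ctsd: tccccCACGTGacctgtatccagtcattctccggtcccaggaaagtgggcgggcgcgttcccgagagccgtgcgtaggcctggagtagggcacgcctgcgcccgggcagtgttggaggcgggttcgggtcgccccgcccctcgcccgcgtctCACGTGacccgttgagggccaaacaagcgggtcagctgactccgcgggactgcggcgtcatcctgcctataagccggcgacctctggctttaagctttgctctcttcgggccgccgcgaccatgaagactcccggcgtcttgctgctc
Ctsa: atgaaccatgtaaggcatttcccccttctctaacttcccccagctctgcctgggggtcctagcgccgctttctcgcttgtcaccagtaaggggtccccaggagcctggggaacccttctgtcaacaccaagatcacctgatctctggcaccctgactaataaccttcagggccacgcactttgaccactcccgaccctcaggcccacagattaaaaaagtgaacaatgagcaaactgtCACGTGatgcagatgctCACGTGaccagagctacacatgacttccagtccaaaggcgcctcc

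The start sites of the printed Ctsa and Ctsl windows are not the outermost ends of these genes in RefSeq, and the other Ctsa window, which is at the gene's end, holds no match. In the printed Ctsa window the 2 matches straddle the window's start site, beginning 12 bases before it and 5 bases after it. In Ctsd they begin 245 and 98 bases before the start site, and the nearer one is the longer form. The single match of Ctsl begins 236 bases before its window's start site. Ctsl, with the short form, stood at a difference of 1.24, Ctsa and Ctsd, with the long form, at 0.31 and 0.23, and Ctss, Ctsz, Ctsc and Ctsg, with none in these windows, at 0.48, 0.33, 0.14 and 0.12. A match is a description of these letters and not a bound site. Of the 4 expressed factors of the MiT/TFE family, 2 were higher and 2 lower (median -0.015, or 0.034 without shared suffix classes). Among all expressed genes, 49.7% were higher. Tfe3 read 356 on the knockout array and 460.05 on the wild-type array (-0.36), and Tfeb 218 on the knockout array and 229 on the wild-type array (-0.063). Tfec, the brightest of the 4, read 1717 on the knockout array and 1677 on the wild-type array (0.034). Mitf read 158 on the knockout array and 154 on the wild-type array (0.034). Tfeb, Tfec and Mitf were within the SD between probe sets.

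Inhibitors of cathepsins had mixed signs. Of 9 expressed, 3 were higher and 6 lower, while 49.7% of all expressed genes were higher. The median of the inhibitors, -0.075, was within the SD between probe sets. Ctla2a and Ctla2b, which resemble the propeptide of cysteine cathepsins and inhibit cathepsin L-like enzymes, had the largest differences. Ctla2a read 211 on the knockout array and 442 on the wild-type array (-1.01), and Ctla2b 78.3 on the knockout array and 136 on the wild-type array (-0.69). Each of them had 1 expressed probe set. A difference of -1 or below, as in Ctla2a, was found in 0.0454% of expressed genes. The stefins, cytosolic inhibitors of cysteine cathepsins, were lower, as in Cstb (-0.23), Stfa3 (-0.16) and, within the SD between probe sets, Stfa2l1 (-0.075). The other expressed probe set of Cstb was at -0.37. The cystatins Cst3 (0.085) and Cst7 (0.11) were within the SD between probe sets. Serpinb1a, an inhibitor of neutrophil serine proteases including cathepsin G, was higher, at 7148 on the knockout array and 5593 on the wild-type array (0.35). Its other expressed probe set was at 0.56.

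Genes that deliver hydrolases to the lysosome were divided. Of 7 expressed, 4 were higher and 3 lower (median 0.089, or 0.044 with the mean of probe sets). Sorl1, a sorting receptor, was at 0.27, with probe sets up to 0.57, and Igf2r, the large mannose 6-phosphate receptor, at -0.27 on a dim signal of 54.0 on the knockout array and 68.4 on the wild-type array. The partners and processing enzymes were all higher, 4 of 4, beside 49.7% of all expressed genes, with a median of 0.16. Lgmn, legumain, which cleaves cathepsin precursors, was dim, at 76.6 on the knockout array and 54.7 on the wild-type array (0.39). Psap, the saposin precursor, was bright, at 5408 on the knockout array and 4657 on the wild-type array (0.21). The neuraminidase Neu1 (0.056) and the beta-galactosidase Glb1 (0.11), both bound by cathepsin A, were within the SD between probe sets.

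Lysosomal membrane proteins were higher in 4 of 4 expressed genes, beside 49.7% of all expressed genes. On the probe set used, each of the 4 was within the SD between probe sets. Their median was 0.050, or 0.029 under quantile normalization, and the largest differences were in Lamp2 (0.14) and Scarb2 (0.050). The expressed probe sets of Lamp2 ran from 0.059 to 0.42, and the second one of Scarb2 was at 0.15.

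Genes of the proteins on which 2 of the cathepsins act had mixed signs. Among all expressed genes, 49.7% were higher. Of the granule serine proteases that Ctsc activates, 2 of 4 expressed were higher and 2 lower (median -0.032). The median was 0.15 with the filter at the 75th percentile or without shared suffix classes, and 0.0095 with a pseudocount of 64. Elane, neutrophil elastase, stood at 0.16 and Prtn3, proteinase 3, at 0.15, both little above the SD between probe sets. Ctsc itself, at 0.14, was within that SD, and its sign depends on the probe set. The mast cell chymase Cma1 was at 189 on the knockout array and 331 on the wild-type array (-0.76), and the granzyme Gzmb was at -0.22. Of the MHC class II antigen processing genes, the pathway of Ctss, 2 of 6 expressed were higher and 4 lower (median -0.099, or 0.079 without shared suffix classes). H2-Aa read 275 on the knockout array and 391 on the wild-type array (-0.48). Cd74, the invariant chain, read 322 on the knockout array and 379 on the wild-type array (-0.22). H2-Eb1 was at -0.19, and H2-Ab1 (-0.012), Ifi30 (0.079) and H2-DMa (0.14) were within the SD between probe sets. Ctss was at 0.48.

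**Figure D4:**
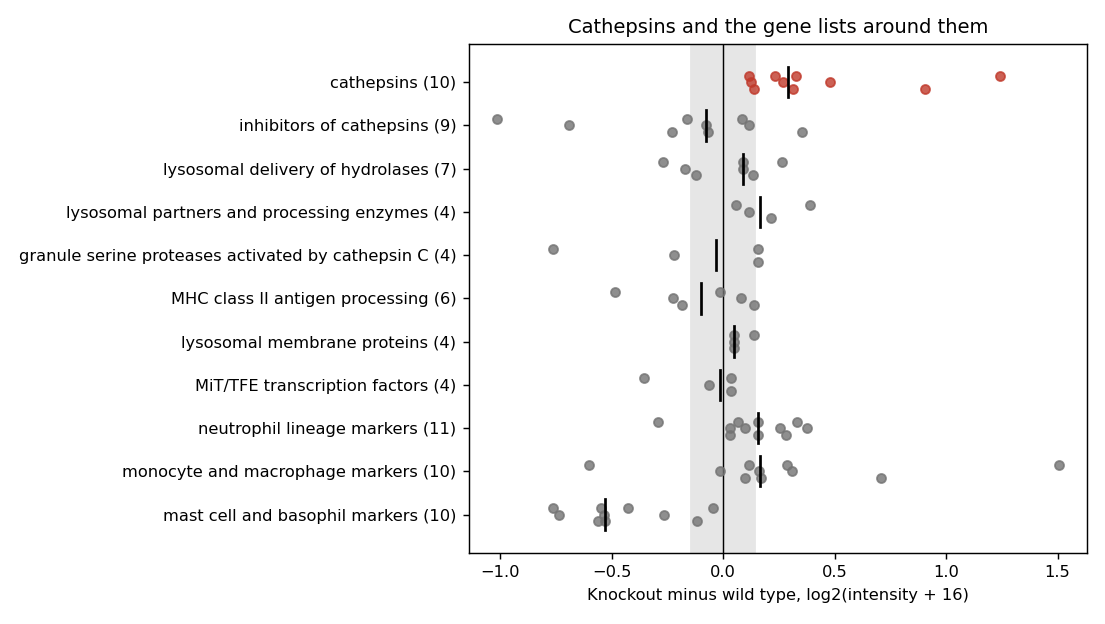
Differences (knockout minus wild type, log2 scale) of the expressed genes of each list, with the number of expressed genes in brackets, a black bar at the median and a grey band for the SD between probe sets. The 10 cathepsins (red) have a median of 0.29, inhibitors of cathepsins one of -0.075 and mast cell and basophil markers one of -0.53.

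The cultures carried the markers of the labelled cell type, and markers of other cells differed between the arrays. In bulk RNA, fewer cells of a type and less RNA per cell cannot be told apart. The share to set beside the counts of markers is that of all expressed genes, of which 49.7% were higher. Neutrophil lineage markers were expressed in 11 of 11 measured genes, and 10 were higher on the knockout array, with a median of 0.15. Their summed intensity was 150903 on the knockout array and 143304 on the wild-type array, and the 2 largest differences were in the receptors Cxcr2 (0.38) and Csf3r (0.33). Monocyte and macrophage markers, of interest because macrophages are rich in cathepsins, were expressed in 10 of 15 measured genes, and 8 were higher, with a median of 0.17. Their sum was 14073 on the knockout array and 12250.0 on the wild-type array. Apoe, a lipoprotein component, stood at 1.51 and Ly86, a partner of a Toll-like receptor family member, at 0.71. The brightest was F13a1, at 6086 on the knockout array and 5402 on the wild-type array (0.17). Csf1r read 3836 on the knockout array and 3580 on the wild-type array (0.099). Ccr2 read 2309 on the knockout array and 1890 on the wild-type array (0.29), and Cd68 was at 0.31. The 2 lower ones were Cx3cr1 (-0.60) and Adgre1 (-0.016). Mrc1, Marco, C1qa, C1qc and Mertk stayed below the threshold on both arrays. The part of these markers in the cathepsin differences was not tested.

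Mast cell and basophil markers, of interest because mast cells also hold cathepsin G, were lower in 10 of 10 expressed genes, with a median of -0.53. Their sum was 4684 on the knockout array and 6710 on the wild-type array, led by Cma1 (-0.76) and Cpa3 (-0.74). Tpsab1 (-0.12) and Kit (-0.047) were within the SD between probe sets, and the other expressed probe set of Kit was at 0.18. Megakaryocyte and platelet markers were lower in 5 of 5, with a median of -0.48, or -0.91 at the 75th percentile filter. Their sums were 1053 on the knockout array and 1889 on the wild-type array, led by Ppbp (-1.06) and Pf4 (-0.91). Gp9 (-0.084) was within the SD between probe sets. Itgb3, the platelet integrin beta chain named above, is not on this list and was higher, at 1.34. Eosinophil markers had 1 of 4 higher, Siglecf (0.92), and a median of -0.53, which turned to 0.098 at the 75th percentile filter, with Prg3 at -0.92 and sums of 968 on the knockout array and 1192 on the wild-type array. The other lists rested on 1 or 2 expressed genes each. These were Flt3 (0.30) and Siglech (-0.17) for dendritic cells, Epor (0.18) and Klf1 (-0.17) for erythroid cells, Cd79b (0.43) for B cells, Nkg7 (0.47) and Cd3d (-0.81) for T and NK cells, and Pdgfrb (0.057) and Col1a2 (0.030) for stroma. Here too, the part of other cells in the cathepsin differences was not tested.

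The size of the small cathepsin differences rests on the scale of the arrays. Spike-in controls gave less signal on the knockout array, in 17 of 18 probe sets of the hybridization controls (median -0.11) and in 24 of 24 of the poly-A controls (median -0.17). Setting the controls level would add these amounts to every gene. It would put the median of all expressed genes at 0.11 or 0.17 and that of the cathepsins at 0.40 or 0.46. The distance between the cathepsins and the expressed genes is the same on either scale. The medians of the inhibitors, the MiT/TFE factors, the granule serine proteases and the MHC class II genes, and the value of Ctso, are below 0 as deposited but above 0 on both control scales.

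**Figure D5:**
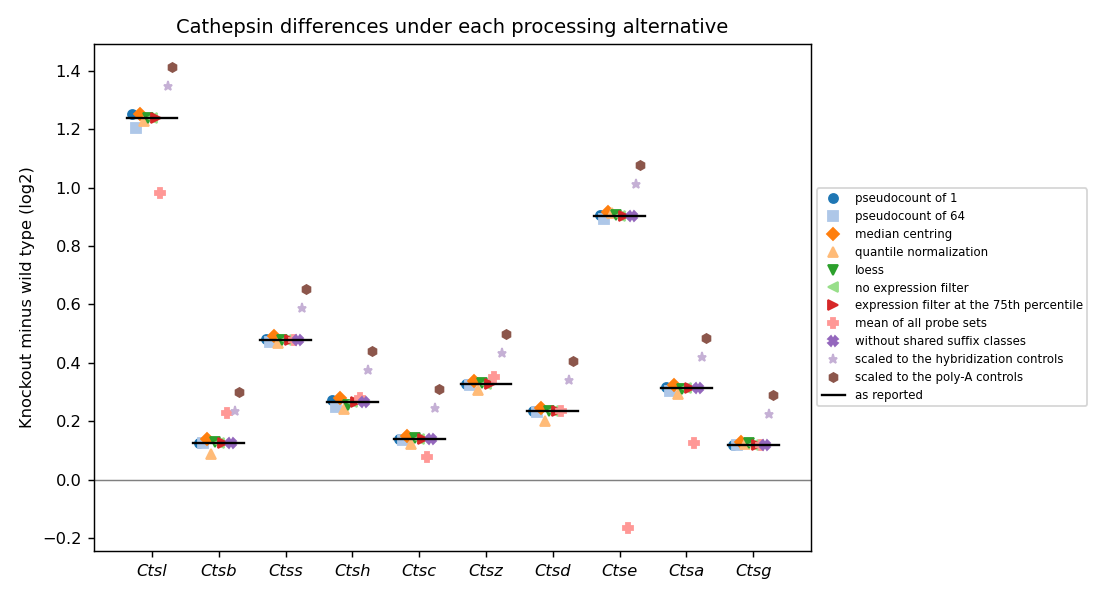
Differences of the 10 cathepsins (knockout minus wild type, log2 scale) under each processing alternative (coloured symbols) and as reported (black line). Ctsl, which has no value without shared suffix classes, lies at 0.98 to 1.41 in the others, and Ctse is the 1 gene that goes below 0, at -0.17 with the mean of its probe sets.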

How the data were processed

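Total RNA of 1 miR-223 knockout and 1 wild-type neutrophil culture was labelled with the 3' IVT Express kit, per the labels' protocols. The authors deposited linear intensities, 1 for each probe set on each array. Background correction, summarization and normalization were not given in the sources used here, and the values were used as deposited, without centring. Of 45101 probe sets, 64 array controls were set aside. The platform annotation named 34945 of the rest for 1 gene, 932 for several and 9160 for none. For 34741 of them, RefSeq (GRCm38.p6) gave the current symbol by Entrez identifier.

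Intensities were taken to log2(intensity + 16), and differences are knockout minus wild type (Python 3.11.15, numpy 2.4.6, pandas 2.3.3). Gene neighbours are the 5 nearest expressed genes on each side. The cathepsins and the gene lists were chosen with earlier results of these data known. Of each list, the 2 expressed genes with the largest differences and any at 1 or more were to be named, with all cathepsins and the 5 genes nearest to Ctsl. Rab7b, Pltp, Mcpt8, Cstb, Stfa3, Stfa2l1, Cst3, Cst7, Serpinb1a, Neu1, Glb1, Elane, Prtn3 and the unexpressed genes named were picked after their values were seen, as was the motif. Cx3cr1, Adgre1, Kit and Tpsab1 were also picked after their values were seen. So were H2-Eb1, H2-Ab1, H2-DMa, Ifi30, Tfec, Mitf, F13a1, Csf1r, Ccr2, Cd68 and Gp9. No test was possible with 1 array per genotype. The procedure was tried on simulated data with planted differences larger than any of the cathepsins. That trial does not measure how well smaller differences are recovered. Alternatives changed the pseudocount, the scaling, the expression filter, the probe set rule and the suffix classes.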

Additional observations from a re-analysis of the deposited data

How the results depend on the processing

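Under 9 alternative settings and 2 more chosen after seeing the data (scaling to the spike-in controls), 106 of 107 values of single cathepsins were above 0. The exception was Ctse at -0.17 with the mean of all probe sets, because its probe sets are averaged. With that mean, 9 cathepsins were higher, 1 reached 0.5, 0 reached 1, and Ctsl stood at 0.98. Without the shared suffix classes (_s_at, _x_at, _a_at) 7 cathepsins had an expressed probe set and all 7 were higher; Ctsl, Ctsz and Ctsd were no longer counted, 1 reached 0.5, 0 reached 1, and 4 exceeded the SD between probe sets. Scaling to the hybridization or the poly-A controls put 2 at 1 or more, with a median of 0.46 on the poly-A scale, where the median of all expressed genes was 0.17. Otherwise the cathepsin median ranged from 0.23 to 0.30 over the first 9 settings. Of 156 list medians under the first 9 settings 12 changed sign, and of 36 on the control scales 11 did. In 19 of these 23 the median as reported was under the SD between probe sets. In the other 4 it was larger: B cell markers to -0.067 without a filter, eosinophil markers to 0.098 and T and NK cell markers to 0.47 with a filter at the 75th percentile, and T and NK cell markers to 0.0014 on the poly-A scale. These 3 lists rest on few genes. The count of expressed genes at 1 or more was 11 higher and 5 lower, against 3 and 1 with a pseudocount of 64 and 14 and 10 with one of 1. No paired analysis was possible because each genotype has 1 array. Dim probe sets limit Ctsl's second reading and those of Ctsa, Ctsb and Ctsc.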
